A study of Mus musculus with 46 samples.

Results

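NF-kB subunits, inhibitors and kinase genes were examined in mouse microglia: the 10 genes Nfkb1, Rela, Rel, Nfkb2, Relb, Nfkbia, Nfkbiz, Tnfaip3, Ikbkb and Ikbkg, chosen by name out of the 54134 genes of the count table. All 10 passed the filter on low counts, which left 12121 genes for testing. RNA was extracted from microglia, the resident macrophages of the brain, and sequenced in 46 libraries of 6 groups. These were AD mice on the HAMSAB diet (8 libraries), the zero fiber diet (8) and the control diet (8), and WT mice on HAMSAB (8), zero fiber (6) and control (8), with both sexes in every group. By label, zero fiber WT had 4 female and 2 male libraries (replicates 1 and 3), and every other group 4 of each sex. AD stands for 5xFAD, a line used to model Alzheimer's disease, with transgenes under the Thy1 promoter, which is active in neurons, and WT for mice without these transgenes. HAMSAB is a resistant starch from high-amylose maize to which acetate and butyrate are attached. The sources used here give no age, strain or length of feeding. Nor do they tie each library to its own animal, so a p-value here reflects how libraries vary, and that variation may be partly technical.

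NF-kB proteins are dimers of 5 subunits that share a DNA-binding domain. In resting cells inhibitor proteins, of which IkBalpha (Nfkbia) is the best known, hold the dimers in the cytoplasm. Signals from cytokine and Toll-like receptors activate the IkB kinase, whose catalytic subunit is encoded by Ikbkb and whose regulatory subunit NEMO by Ikbkg; the kinase marks IkBalpha for destruction and the dimer enters the nucleus. Nfkbia and Tnfaip3, which encodes the brake A20, are themselves classical targets of NF-kB, so that the pathway makes its own inhibitors. Most of this regulation acts on proteins, which these RNA counts do not measure.

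All 10 are protein-coding genes (GRCm38, GENCODE M21). Of the subunit genes, Nfkb1 lies at chr3:135584655-135691547 and Rel at chr11:23736847-23770970, both on the minus strand, Rela at chr19:5637483-5648130 and Nfkb2 at chr19:46304320-46312385, both on the plus strand, and Relb at chr7:19606217-19629438 on the minus strand. The inhibitor genes Nfkbia (chr12:55489410-55492647), Nfkbiz (chr16:55811375-55838899) and Tnfaip3 (chr10:19000910-19015657) are on the minus strand. Of the kinase genes, Ikbkb (chr8:22659212-22706589) is on the minus strand and Ikbkg (chrX:74393290-74453854) on the plus strand.

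Libraries held between 52114 and 6950429 counts (median 2344837.5). The shallowest library is a zero fiber AD library (replicate 3, 52114 counts), and the next 2 totals were 783849 and 1174514. A zero fiber AD library labelled female (replicate 1) had 0.213 CPM (counts scaled by library size) of Xist and 142 CPM of the Y-linked gene Ddx3y, which goes against its label. The results were therefore also computed without these 2 libraries. The numbers in the sample titles fall in a lower range (23 libraries) and a higher range (22 libraries), and 1 library has neither; what the numbers mark is not stated, and the ranges are unevenly spread over the groups, with 7 of 8 control WT libraries in the higher range and 5 of 8 HAMSAB WT libraries in the lower one. All 10 microglial markers examined were present in each of the 45 deeper libraries, led by Csf1r (median 8744 CPM), Cx3cr1 (7740 CPM) and P2ry12 (5347 CPM).

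Compared per kilobase of merged exon, Nfkbia RNA was by far the most abundant of the 10. Its median was 166 CPM per kilobase over the 45 libraries with at least 500000 counts, and its lowest library, 97.7, lay above the highest library of any other member. The classical subunits followed, with medians of 24.8 CPM per kilobase for Rela, which encodes the activating subunit p65, 17.5 for Rel, which encodes c-Rel, and 14.8 for Nfkb1, which encodes the precursor of p50. Relb (6.52), Ikbkb (6.48), Nfkb2 (4.22), Tnfaip3 (3.81), Ikbkg (3.56) and Nfkbiz (3.46) were lower still. Neighbours at the lower end could not be told apart: Relb exceeded Ikbkb in 23 of 45 libraries, Nfkb2 exceeded Tnfaip3 in 27, Tnfaip3 exceeded Ikbkg in 27 and Ikbkg exceeded Nfkbiz in 23. The order of the middle genes depends on the exon length used. With the shorter basic annotation Nfkb1 had a median of 43.4 CPM per kilobase, next below Nfkbia at 169.7, and Ikbkb one of 27.3, next below Rela at 28.1.

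**Figure D1:**
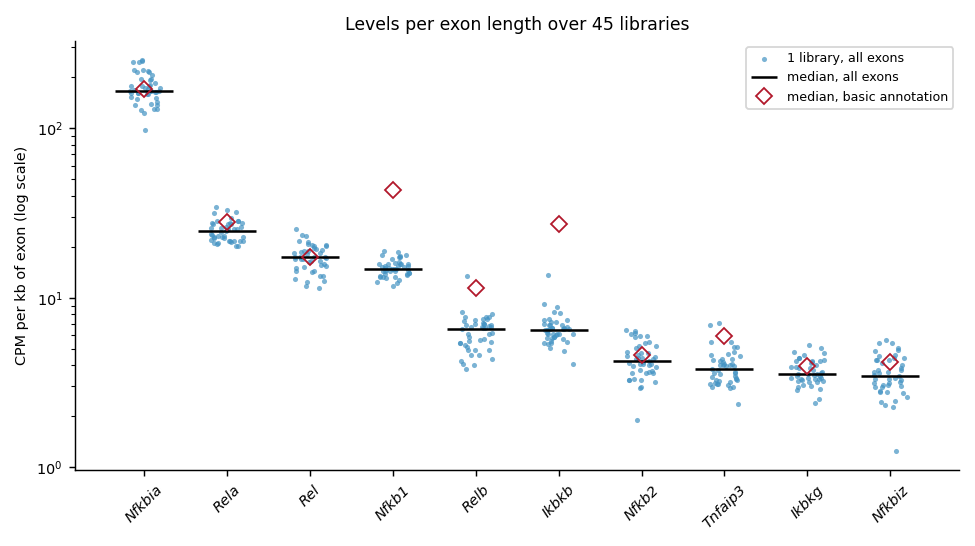
Levels of the 10 members in CPM per kilobase of exon, on a log scale, over 45 libraries; each dot is 1 library with all annotated exons as the length, the bar is the median and the open diamond is the median with the basic annotation. Nfkbia stands apart at 166, and the diamonds of Nfkb1 (43.4) and Ikbkb (27.3) lie well above their bars.

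In CPM, without regard to length, Nfkbia averaged 279 over the 46 libraries, a level above that of 95.6% of the genes tested, and Nfkb1 averaged 179, above 92.05%. The least abundant members, Nfkbiz at 17.97 CPM and Nfkb2 at 19.7 CPM, still exceeded 41.5% and 43.7% of the genes tested. The spread between libraries was smallest for Nfkb1, with a coefficient of variation of 11.4%, and largest for Nfkbiz, with 26.2%; counting error alone would give about 4.98% and 16.3%. Between the lowest and the highest of the 6 group medians over all 46 libraries, members differed at most 1.31-fold (Tnfaip3), and at least 1.08-fold (Rel). Some of these ratios depend on the library of 52114 counts, which is in neither group of the Tnfaip3 ratio (control AD and HAMSAB WT). Without that library the zero fiber AD median was 21.65 CPM instead of 20.19 for Nfkbiz, whose lowest group median was 15.75 (HAMSAB AD). For Ikbkg it was 35.75 CPM instead of 32.2, with a lowest group median of 27.08 (control AD). For Rel it was 137.9 CPM instead of 127.5. Nfkbiz and Ikbkg then had larger ratios than Tnfaip3. These are bulk samples, so fewer cells of a type and less RNA per cell cannot be told apart in any of the comparisons.

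**Figure D2:**
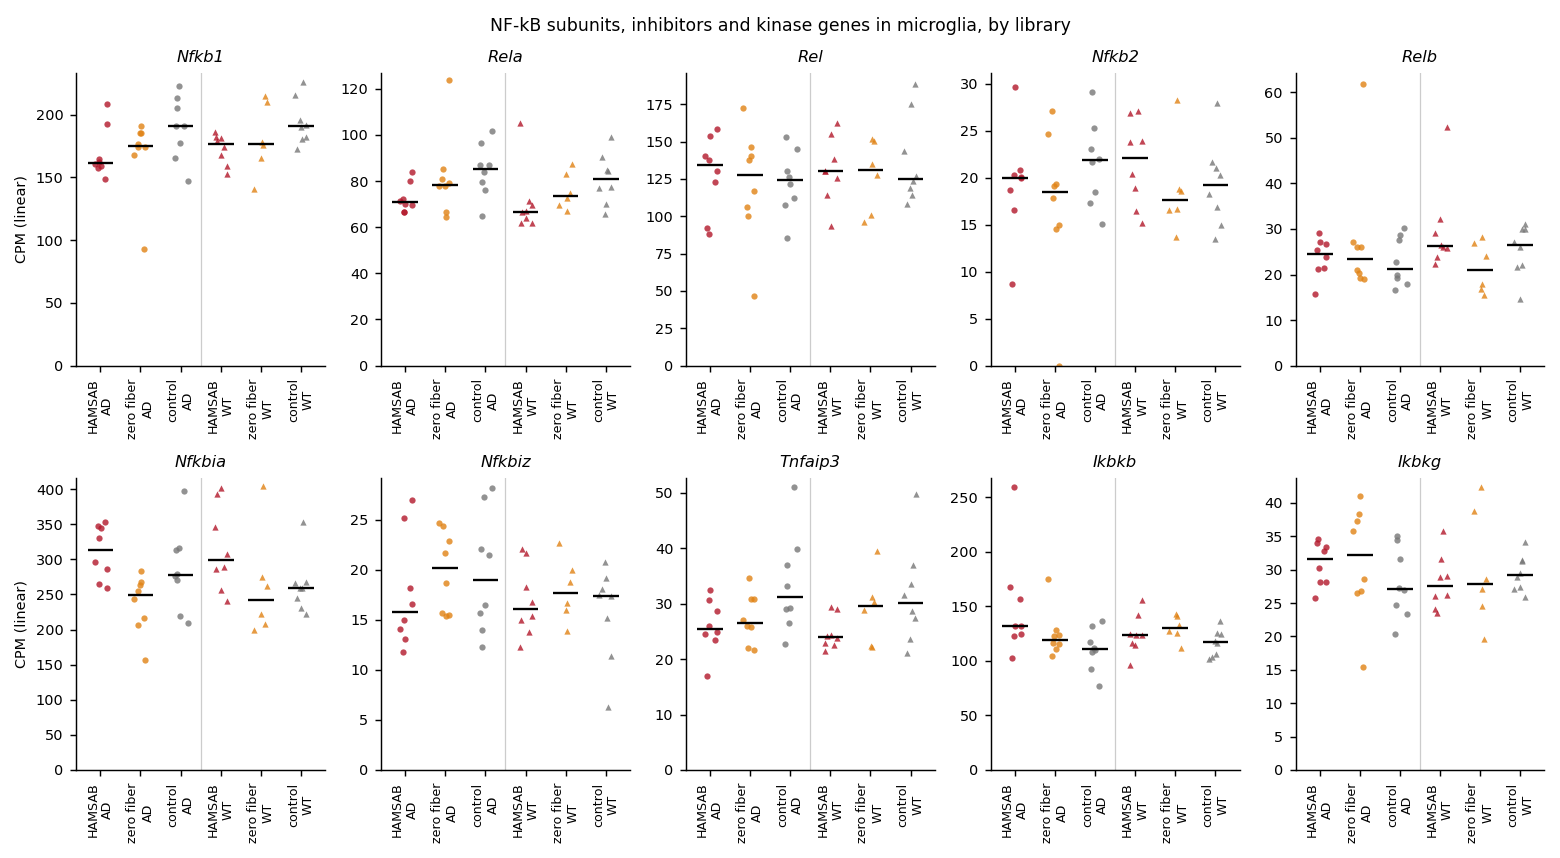
CPM of the 10 members in each of the 46 libraries, on linear axes from 0, with circles for AD and triangles for WT, red for HAMSAB, orange for zero fiber and grey for control; the bar is the group median. The 6 groups overlap for every member, and single libraries stand far out, such as Ikbkb at 259 in a HAMSAB AD library and Relb at 61.8 in the zero fiber AD library of 52114 counts.

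The series asks how dietary fiber bears on the microglial transcriptome in WT and 5xFAD mice. No member passed an adjusted p of 0.05 (edgeR's quasi-likelihood test, Benjamini-Hochberg adjustment over all 12121 genes) in any of the 15 planned comparisons. In a test for any difference among the 6 groups none of the 10 passed either, against 4.36% of all genes; the lowest adjusted p was 0.186, for Ikbkb and Nfkbia. Over these and 2 added comparisons, 20 of the 170 tests of members had an unadjusted p under 0.05, against 10.54% of the tests of all genes. In 14 pairwise comparisons the libraries of the 2 sides overlapped for every member (0 of 140 separated), against 0.101% of the same comparisons separated over all genes, so that the count of 0 says nothing particular about the members.

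Between diets in AD mice, 0 of 10 members passed for HAMSAB against zero fiber, where 0.239% of all genes did, 0 of 10 for HAMSAB against control (0.0743% of all genes) and 0 of 10 for zero fiber against control (0.0578%). At an unadjusted p under 0.05 the counts were 1 of 10 (10.6% of all genes), 3 of 10 (15.3%) and 1 of 10 (10.8%). In WT mice, 0 of 10 passed for HAMSAB against zero fiber (2.19% of all genes), 0 of 10 for HAMSAB against control (0.281%) and 0 of 10 for zero fiber against control (0.00825%), with 1 (12% of all genes), 3 (13.3%) and 0 (7.58%) members at an unadjusted p under 0.05. DESeq2's test and limma's voom with quality weights called no member in these 6 comparisons either.

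Pooling both genotypes gives the comparison with the narrowest intervals for a diet effect. For HAMSAB against zero fiber, 0 of 10 members passed, against 1.02% of all genes, and 2 of 10 had an unadjusted p under 0.05, against 13.3%. For HAMSAB against control, a comparison added after the data were seen, 0 of 10 passed, against 4.52% of all genes, and 5 of 10 had an unadjusted p under 0.05, against 22%. These 5 were Tnfaip3, Rela and Nfkb1, with lower estimates on HAMSAB, and Ikbkb and Nfkbia, with higher ones; voom called 1 of them, Rela, and DESeq2 none. Of 3 neuronal genes tested, Syt1 was called higher in the same comparison (median level 1.56 CPM), and its part in the members' values was not tested. The 3 diet comparisons share libraries, so their values are not independent of each other. The members' median log2 fold change was -0.01, against 0.00242 over all genes. For zero fiber against control, also added, 0 of 10 passed, against 0.363% of all genes, and 0 of 10 had an unadjusted p under 0.05, against 13.1%.

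**Figure D3:**
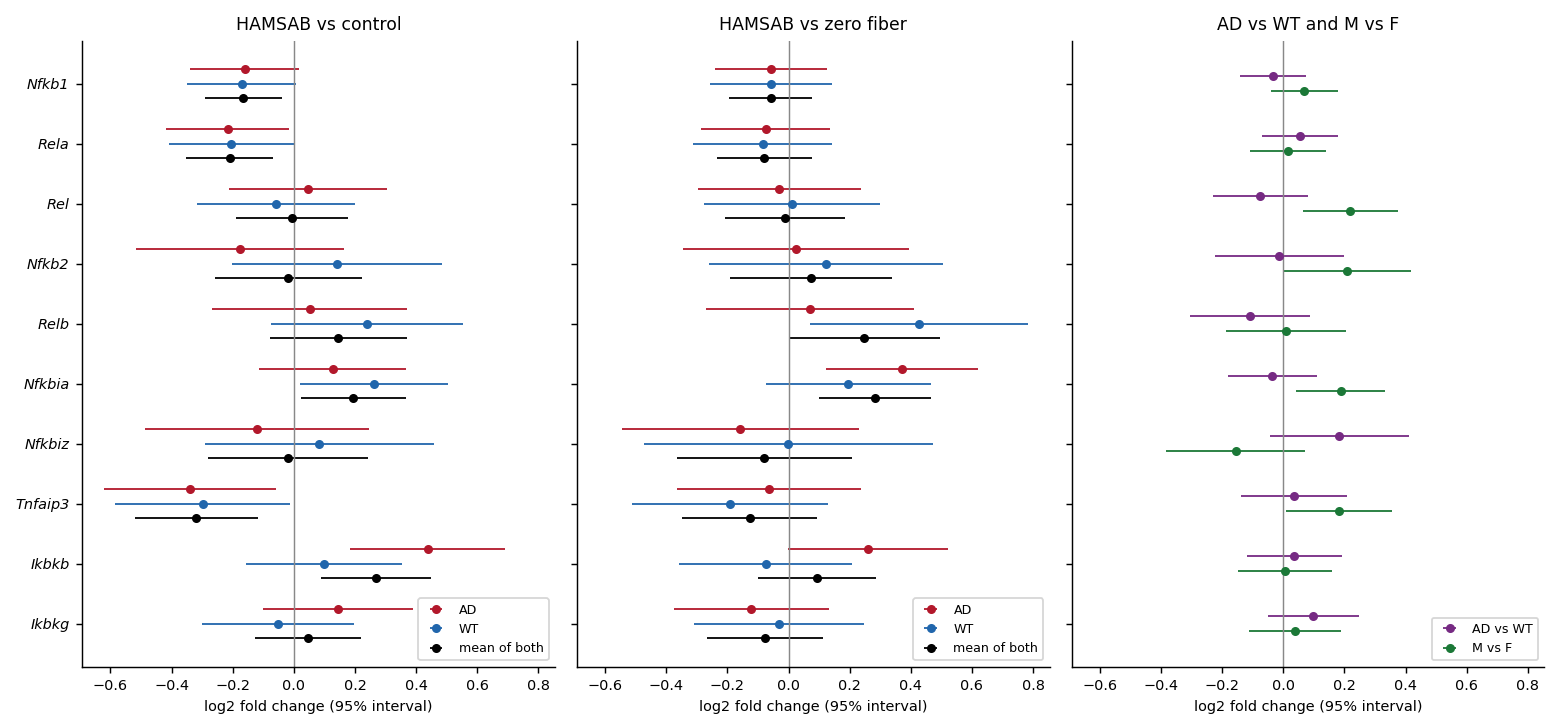
Log2 fold changes of the 10 members with 95% intervals from edgeR: HAMSAB over control (left) and HAMSAB over zero fiber (middle), in AD, in WT and averaged over both, and AD over WT and M over F (right). For HAMSAB over control the mean interval lies below 0 for Nfkb1, Rela and Tnfaip3 and above 0 for Nfkbia and Ikbkb; no point passed an adjusted p of 0.05.

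Among the classical subunits, Rela had estimates below 0 in both genotypes, which differed by -0.01 (AD minus WT, SE 0.14). It had 66.5, 70.7 and 84.0 CPM (lowest, median, highest) in HAMSAB AD libraries, against 64.7, 85.4 and 102 in control AD libraries. In WT it had 61.9, 66.7 and 105 CPM in HAMSAB libraries, against 65.6, 81.1 and 99.0 in control libraries. Of the 16 HAMSAB libraries, 1 lay above the median of the 16 control libraries, the HAMSAB WT library at 105 CPM. The log2 fold change was -0.22 (SE 0.10, adjusted p = 0.286) in AD, -0.20 (SE 0.10, adjusted p = 0.373) in WT and -0.21 over both (SE 0.07, 95% interval -0.35 to -0.07, adjusted p = 0.0695). Without the library at 105 CPM (HAMSAB WT replicate 8) the estimate over both was -0.25 with an adjusted p of 0.0172, and without control AD replicate 6 it was -0.23 with an adjusted p of 0.0442. Of the 32 fits that left out 1 library, only these 2 called Rela. Over all 40 alternatives the estimate ran from -0.25 to -0.16 and the adjusted p from 0.0172 to 0.195. Within the lower range of title numbers the mean log2 CPM difference was -0.24 (10 HAMSAB and 5 control libraries), and within the higher range -0.12 (5 and 11).

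Nfkb1 had a smaller difference in the same direction. It had 149, 161 and 209 CPM in HAMSAB AD libraries, against 147, 191 and 223 in control AD libraries, and 153, 177 and 186 CPM in HAMSAB WT libraries, against 173, 191 and 226 in control WT libraries. Over both genotypes 2 of 16 HAMSAB libraries exceeded the control median, and the log2 fold change was -0.17 (SE 0.06, 95% interval -0.29 to -0.04, adjusted p = 0.106). Within the 2 ranges of title numbers the mean log2 CPM difference was -0.18 and -0.19. Zero fiber libraries had medians of 175 CPM in AD and 177 CPM in WT.

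Rel showed no diet difference that these libraries could resolve. Its medians were 134, 128 and 124 CPM on HAMSAB, zero fiber and control in AD, and 130, 131 and 125 CPM in WT. The log2 fold change of HAMSAB over control was -0.01 (95% interval -0.19 to 0.18) and that of HAMSAB over zero fiber -0.01 (95% interval -0.21 to 0.19), and the bounds of these intervals ran from 0.867-fold to 1.14-fold.

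The subunits of the alternative pathway, Nfkb2 (precursor of p52) and Relb, had 19.7 and 25.3 CPM on average and wider intervals. Nfkb2 had medians of 19.99, 18.5 and 21.9 CPM on HAMSAB, zero fiber and control in AD, and 22.1, 17.6 and 19.3 CPM in WT; its diet estimates within a genotype ran from -0.20 to 0.14 on the log2 scale. Its exons overlap those of Psd (299 bases) and of AC114539.1 (531 bases) on the opposite strand, and the strand setting of the counting is not given in the sources used here, so that reads from them cannot be told apart from its own without strand. Relb had 22.2, 26.2 and 52.4 CPM in HAMSAB WT libraries, against 15.6, 20.9 and 28.3 in zero fiber WT libraries, and all 8 HAMSAB WT libraries exceeded the zero fiber WT median. Its log2 fold change was 0.43 in WT (SE 0.18, 95% interval 0.07 to 0.78, adjusted p = 0.275) and 0.07 in AD (SE 0.17, 95% interval -0.27 to 0.41); the difference of AD from WT, -0.36 (SE 0.25, adjusted p = 0.75), was not resolved. Within WT the estimate was 0.27 without zero fiber WT replicate 3 and 0.61 without zero fiber WT replicate 1. With libraries of both genotypes pooled, the mean log2 CPM difference was -0.02 within the lower range of title numbers and 0.46 within the higher one. The zero fiber side of the lower range includes zero fiber AD replicate 3, with Relb at 61.8 CPM from 4 counts.

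Nfkbia, the most abundant inhibitor gene, had its highest median on HAMSAB in both genotypes. It had 260, 313 and 353 CPM in HAMSAB AD libraries, against 157, 249 and 284 in zero fiber AD libraries and 209, 278 and 397 in control AD libraries. In WT it had 240, 298 and 401 CPM on HAMSAB, against 199, 242 and 404 on zero fiber and 222, 259 and 354 on control. All 8 HAMSAB AD libraries lay above the zero fiber AD median, and 15 of 16 HAMSAB libraries above the zero fiber median of both genotypes. The log2 fold change of HAMSAB over zero fiber was 0.37 in AD (SE 0.12, 95% interval 0.12 to 0.62, adjusted p = 0.22), 0.20 in WT (SE 0.13, adjusted p = 0.632) and 0.28 over both (SE 0.09, 95% interval 0.10 to 0.47, adjusted p = 0.128). Against control it was 0.19 over both (SE 0.08, adjusted p = 0.163). Within the lower range of title numbers the mean log2 CPM difference from zero fiber was 0.17 (10 HAMSAB and 8 zero fiber libraries), and within the higher range 0.69 (5 and 6).

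Hemoglobin transcripts differed between the same pair of diets, with zero fiber highest in both genotypes by median. Over the 45 deeper libraries 6 erythroid genes had summed medians of 16.5, 135 and 15.5 CPM on HAMSAB, zero fiber and control in AD. In WT these medians were 34.6, 121 and 50.7 CPM. Over the 45 deeper libraries the summed level of 6 erythroid genes was 1.70 to 158 CPM in HAMSAB AD libraries, against 22.3 to 423 in zero fiber AD libraries, and 8.88 to 141 CPM in HAMSAB WT libraries, against 66.7 to 685 in zero fiber WT libraries; all 4 erythroid genes tested were lower on HAMSAB over both genotypes (median log2 fold change -2.26). Ngp, a neutrophil gene whose median level was 0 CPM, and Mrc1, a perivascular macrophage gene, were called lower in that comparison. Against 0.437% of all genes falling and 0.586% rising, 1 of 4 monocyte and neutrophil genes tested fell and 0 rose. Of 9 perivascular macrophage genes 1 fell and 0 rose. The part of these cells in the Nfkbia values was not tested. Ly6g was at 0 in all 45 libraries, and none of the 10 T, NK and B cell markers was abundant enough to be tested.

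Tnfaip3, whose protein A20 removes ubiquitin chains that carry the signal to the kinase, was lowest on HAMSAB in both genotypes by median. It had 17.02, 25.4 and 32.6 CPM in HAMSAB AD libraries, against 22.8, 31.3 and 51.1 in control AD libraries, and 21.4, 23.9 and 29.4 CPM in HAMSAB WT libraries, against 21.1, 30.2 and 49.9 in control WT libraries. None of the 8 HAMSAB WT libraries and 1 of the 8 HAMSAB AD libraries exceeded the control median of its genotype. The log2 fold change was -0.34 in AD (SE 0.14, adjusted p = 0.231), -0.30 in WT (SE 0.14, adjusted p = 0.354) and -0.32 over both (SE 0.10, 95% interval -0.52 to -0.12, adjusted p = 0.0525). This was the lowest adjusted p of any member; it fell below 0.05 when any 1 of 8 libraries was left out, with estimates from -0.33 to -0.35, and ranged from 0.0373 to 0.0996 over all alternatives. Within the ranges of title numbers the mean log2 CPM difference was -0.15 in the lower and -0.42 in the higher. Zero fiber medians, 26.6 CPM in AD and 29.6 CPM in WT, lay between those of HAMSAB and control, and the log2 fold change of zero fiber over control was -0.19 over both (SE 0.11, adjusted p = 0.458).

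Nfkbia and Tnfaip3, both targets of the pathway they restrain, had estimates of opposite sign for HAMSAB over control, 0.19 for Nfkbia and -0.32 for Tnfaip3, with 95% intervals of 0.02 to 0.37 and -0.52 to -0.12; neither passed the adjusted threshold. Nfkbiz, which encodes the nuclear regulator IkBzeta, had medians of 15.8, 20.2 and 19 CPM on HAMSAB, zero fiber and control in AD, and 16.1, 17.7 and 17.4 CPM in WT. Its log2 fold change of HAMSAB over control was -0.02 (95% interval -0.28 to 0.24), and that over zero fiber -0.08 (95% interval -0.36 to 0.21).

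Of the kinase genes, Ikbkb had the largest diet estimate of any member. It had 103, 132 and 259 CPM in HAMSAB AD libraries, against 77.4, 111 and 137 in control AD libraries, and 7 of the 8 exceeded the control median. In WT it had 96.0, 124 and 156 CPM in HAMSAB libraries, against 102, 117 and 137 in control libraries. The log2 fold change of HAMSAB over control was 0.44 in AD (SE 0.13, 95% interval 0.18 to 0.69, adjusted p = 0.0863), 0.10 in WT (SE 0.13, 95% interval -0.16 to 0.35, adjusted p = 0.811) and 0.27 over both (SE 0.09, adjusted p = 0.0661). The difference between the genotypes, 0.34 (SE 0.18, 95% interval -0.02 to 0.70, adjusted p = 0.914), did not pass. One library carried much of the AD value: without HAMSAB AD replicate 6, the one at 259 CPM, the log2 fold change in AD was 0.27, and that of AD over WT on HAMSAB, 0.26 with all libraries, was 0.09. Within AD the mean log2 CPM difference was 0.21 in the lower range of title numbers (5 HAMSAB and 4 control libraries) and 0.92 in the higher (2 and 4). The 2 HAMSAB libraries of the higher range are both female and include replicate 6, while the 4 controls are of both sexes. The 9 perivascular macrophage markers had a summed level of 191 to 276 CPM in HAMSAB AD libraries, against 195 to 439 in control AD libraries. In that comparison 0 of 9 passed, 8 of 9 had an estimate below 0 with an unadjusted p under 0.05, and the median log2 fold change was -1.25; their part in the AD values of Ikbkb, Rela and Tnfaip3 was not tested.

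Ikbkg had medians of 31.5, 32.2 and 27.1 CPM on HAMSAB, zero fiber and control in AD, and 27.5, 27.8 and 29.2 CPM in WT. Zero fiber over control gave a log2 fold change of 0.27 in AD (SE 0.13, 95% interval 0.01 to 0.52, adjusted p = 0.437) and -0.02 in WT (SE 0.14). Its exons share 418 bases with G6pdx on the opposite strand, with the same limit as for Nfkb2.

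Genotype made no resolved difference to any member. Over the 3 diets 0 of 10 members passed for AD against WT, as did 0.0165% of all genes, and 0 of 10 had an unadjusted p under 0.05, against 7.28% of all genes. The members' estimates ran from -0.11 (Relb) to 0.18 (Nfkbiz), and no 95% interval reached beyond 1.33-fold. By diet, 0 of 10 passed on zero fiber (0.00825% of all genes), 0 of 10 on control (0% of all genes) and 0 of 10 on HAMSAB (1.68% of all genes); at an unadjusted p under 0.05 the counts were 0 (4.7% of all genes), 0 (5.4%) and 1 (12%), the last being Ikbkb. DESeq2 and voom called 0 members as well. Tests of whether a diet effect differed between AD and WT called 0 of 10 for HAMSAB against zero fiber (1.08% of all genes), 0 of 10 for HAMSAB against control (0%) and 0 of 10 for zero fiber against control (0%), with 0 members at an unadjusted p under 0.05 in each, where 9.46%, 5.53% and 6.17% of all genes had one.

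Between the sexes, averaged over the 6 groups, 0 of 10 members passed, against 0.124% of all genes, and 3 of 10 had an unadjusted p under 0.05, against 10.5%. Estimates were above 0 for 9 of 10, but those of Ikbkb, Relb, Rela and Ikbkg were at most 0.04. The members' median was 0.05, against -0.005 over all genes. Rel had 46.4, 138 and 189 CPM in the 22 male libraries, against 87.8, 120 and 162 in the 24 female libraries, and the lowest male value is that of the library with 52114 counts. Its log2 fold change of male over female was 0.22 (SE 0.08, 95% interval 0.06 to 0.38, adjusted p = 0.271), and 0.25 (adjusted p = 0.147) without the 2 doubted libraries. Nfkbia gave 0.19 (SE 0.07, adjusted p = 0.316) and Tnfaip3 0.18 (SE 0.09, adjusted p = 0.454). For Rel the mean log2 CPM difference was 0.01 within the lower range of title numbers and 0.31 within the higher one. Both doubted libraries are in the lower range. The one of 52114 counts is on the male side, and the one whose sex genes go against its label is on the female side.

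The members' levels were at most weakly correlated with each other. Over the 45 deeper libraries the 45 pairwise Pearson correlations of log2 CPM ran from -0.34 (Nfkb1 and Ikbkb) to 0.34 (Nfkb2 and Relb), with a median of -0.00195 and 22 above 0. Nfkbia correlated at 0.34 with Relb and at 0.33 with Nfkb2. The libraries share groups, depth and handling, so these values are a description only. Counting error also lowers correlations between genes of few counts. It alone would give a coefficient of variation of 15.1% for Nfkb2 and 12.25% for Ikbkg, against 23.4% and 17.4% seen. Other genes tracked single members more closely. Among 8405 genes of sufficient level, Rtn4rl1 (r = 0.73) and Msl1 (0.72) were most like Nfkb1, Sh2b3 (0.67) and Rps6ka1 (0.66) most like Rela, and Frmd4a (0.67) and Macf1 (0.67) most like Rel. For Nfkbia they were Ddit4 (0.61), a stress-induced inhibitor of mTOR signalling, and Ctsl (0.55), a lysosomal protease; for Tnfaip3, Klhl6 (0.65) and Nup62 (0.64); for Ikbkb, Cdc123 (0.66); and for Nfkbiz, Manba (0.55) and Egr1 (0.54). For Nfkb2 they were Ctdp1 (0.56) and Tpt1 (0.54), for Relb Lonp2 (0.57) and Asf1a (0.55), and for Ikbkg Nutf2-ps1 (0.68) and Trappc2l (0.67). The best matches of so many candidates are high by selection: the value exceeded by 1 in 100 candidates was 0.58 for Nfkb1 and 0.38 for Nfkbia. The summed immediate early genes, which rise when microglia are handled, correlated with Ikbkb at -0.54, with Nfkb1 at 0.31 and with the other members at -0.14 (Rela) to 0.13 (Ikbkg).

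Promoters of the members that NF-kB can feed back on are shown because the pathway's own inhibitors are among its targets. In the RefSeq table (GRCm38.p6) 6 of the 10 members were matched; Nfkb1, Relb, Nfkbiz and Ikbkb were not. The 250 bases before each annotated start were searched on both strands for the kappaB consensus and for the motif GGGNNTTTCC, which overlaps the consensus but fixes other letters. The consensus occurred in 4 of the 6 genes (66.7%), counting a gene when any of its starts had a match, and in 8.23% of the 27025 genes of the table; GGGNNTTTCC occurred in 4 of 6 and in 1.65% of all genes. A match is a description of these letters and not evidence of binding. The windows of the first annotated start are given 5′ to 3′ on the strand of the gene, with consensus matches in capitals; overlapping matches run together. Rela, without a match, is given for comparison.
Nfkbia, chr12:55492648-55492897, minus strand: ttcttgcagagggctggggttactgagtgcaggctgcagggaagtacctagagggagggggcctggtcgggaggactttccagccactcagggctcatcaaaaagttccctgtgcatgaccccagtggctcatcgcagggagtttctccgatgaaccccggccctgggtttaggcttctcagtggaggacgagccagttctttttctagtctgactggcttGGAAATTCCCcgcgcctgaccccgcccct
Tnfaip3, chr10:19015411-19015660, minus strand: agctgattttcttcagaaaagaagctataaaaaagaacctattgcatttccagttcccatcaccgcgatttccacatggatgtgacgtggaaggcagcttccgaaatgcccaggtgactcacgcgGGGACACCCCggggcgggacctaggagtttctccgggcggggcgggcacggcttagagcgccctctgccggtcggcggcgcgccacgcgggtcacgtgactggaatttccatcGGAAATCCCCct
Nfkb2, chr19:46304487-46304736, plus strand: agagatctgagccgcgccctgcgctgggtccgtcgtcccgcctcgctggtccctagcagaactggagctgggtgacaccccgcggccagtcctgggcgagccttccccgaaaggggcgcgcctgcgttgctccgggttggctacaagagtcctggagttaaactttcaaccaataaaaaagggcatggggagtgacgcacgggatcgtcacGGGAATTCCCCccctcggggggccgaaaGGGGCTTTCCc
Rel, chr11:23770970-23771219, minus strand: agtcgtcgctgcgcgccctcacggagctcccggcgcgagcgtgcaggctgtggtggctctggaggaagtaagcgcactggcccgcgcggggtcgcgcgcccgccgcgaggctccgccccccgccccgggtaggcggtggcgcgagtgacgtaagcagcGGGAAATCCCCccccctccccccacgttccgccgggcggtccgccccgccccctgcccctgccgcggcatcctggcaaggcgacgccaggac
Rela, chr19:5637291-5637540, plus strand: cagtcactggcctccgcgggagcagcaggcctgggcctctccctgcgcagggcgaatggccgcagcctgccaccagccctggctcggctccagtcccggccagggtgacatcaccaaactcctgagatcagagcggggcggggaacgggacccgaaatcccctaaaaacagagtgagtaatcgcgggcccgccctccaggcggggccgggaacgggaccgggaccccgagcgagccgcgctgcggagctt

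The matches lay at different distances from the start. In Nfkbia the single match, GGAAATTCCC, lay 29 to 20 bases before it. In Tnfaip3 there were matches at 125 to 116 and 12 to 3 bases, the second reading GGAAATCCCC. Nfkb2 had overlapping matches at 39 to 29 bases and GGGGCTTTCC at 11 to 2 bases, and Rel had overlapping matches at 92 to 82 bases. For HAMSAB over control over both genotypes, log2 fold changes with a match were 0.19 (Nfkbia), -0.32 (Tnfaip3), -0.01 (Rel) and -0.02 (Nfkb2). Without a match in any window they were -0.21 (Rela) and 0.05 (Ikbkg). The estimates of Rel, Nfkb2 and Ikbkg were smaller than their SE (0.09, 0.12 and 0.09), so their signs were not resolved. Whether a match goes with the direction of the diet estimate was not tested.

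**Figure D4:**
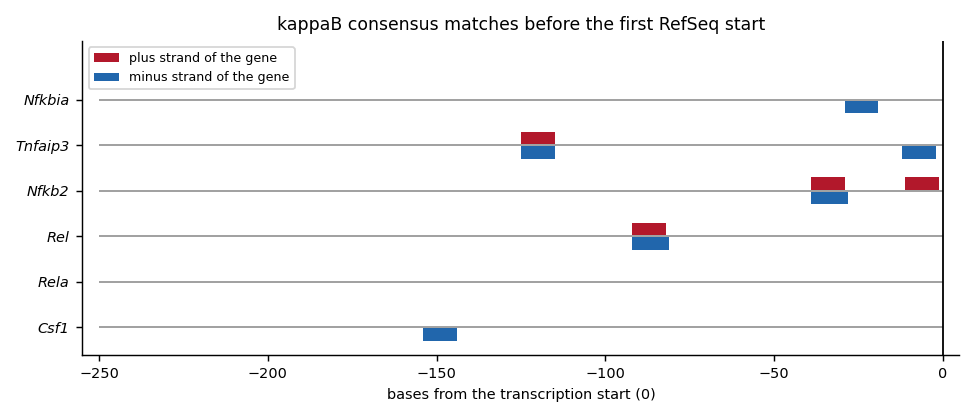
Positions of kappaB consensus matches in the 250 bases before the first RefSeq start of 5 members and of Csf1, a target gene described in the text; the axis gives the distance from the start in bases, and bars above the line are on the gene's own strand. Nfkbia has 1 match close to the start, Tnfaip3 and Nfkb2 have matches near the start and farther away, and Rela has none.

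Among genes commonly listed as NF-kB targets, some rose with HAMSAB. Of 40 such genes, listed with earlier results of these data known, 26 were abundant enough to be tested. For HAMSAB over zero fiber, averaged over genotypes, 4 rose (Cd83, Ccl4, Ccl5 and Csf1) and 0 fell, against 0.586% of all genes rising and 0.437% falling; the median log2 fold change of the 26 was 0.16, against 0.0096 over all genes. For HAMSAB over control, again added after the data were seen, 4 rose (Cd83, Ccl4, Cxcl16 and Ccl5) and 0 fell, against 2.31% and 2.21% of all genes, with a median of 0.12, against 0.00242 over all genes. The same genes were called without the 2 doubted libraries. The lower erythroid genes, Mrc1 and Ngp on HAMSAB relative to zero fiber, and the higher Syt1 relative to control, belong to the same comparisons, and their part in the target genes' values was not tested. None of the 10 members passed in either comparison.

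Cd83, a surface protein of activated antigen-presenting cells and microglia, showed the most regular difference. It had 165, 205 and 240 CPM in HAMSAB AD libraries, against 85.1, 139 and 278 in zero fiber AD and 116, 128 and 196 in control AD libraries. In WT it had 145, 218 and 261 CPM on HAMSAB, against 91.0, 146 and 195 on zero fiber and 103, 143 and 163 on control. Its log2 fold change over both genotypes was 0.57 over zero fiber (SE 0.10, adjusted p = 0.000885) and 0.55 over control (SE 0.09, adjusted p = 0.0014), and it passed under every alternative run for these 2 comparisons. Within single genotypes it passed for HAMSAB over zero fiber in AD (0.57, adjusted p = 0.0474) and in WT (0.57, adjusted p = 0.0276) and for HAMSAB over control in WT (0.54, adjusted p = 0.0483), calls that held in 2 of 16, 6 of 14 and 3 of 16 fits that left out 1 library.

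The chemokine Ccl4 and the microglial growth factor Csf1 rose with HAMSAB over zero fiber, by 0.95 (SE 0.19, adjusted p = 0.0045) and 0.50 (SE 0.11, adjusted p = 0.015) on the log2 scale over both genotypes; without zero fiber WT replicate 3 the estimates were 0.82 (adjusted p = 0.0562) and 0.43 (adjusted p = 0.126). Ccl4 had medians of 69.0, 47 and 56.7 CPM on HAMSAB, zero fiber and control in AD, and 96.9, 39.8 and 45.2 CPM in WT. Csf1 had 27.4, 21.4 and 28.7 CPM in AD, and 31.1, 19.1 and 27.7 CPM in WT, so that on zero fiber it was below both other diets. Over control, Ccl4 rose by 0.64 (SE 0.17, adjusted p = 0.0206), and by 0.49 (adjusted p = 0.0999) with a term for the range of title numbers. Ccl5, another chemokine, rose by 1.24 (SE 0.25, adjusted p = 0.00635) over zero fiber and by 0.75 (SE 0.22, adjusted p = 0.04) over control, the second call held in 18 of 32 fits that left out 1 library and lost with the title-range term (0.68, adjusted p = 0.0828) and by DESeq2 (0.79, adjusted p = 0.0526), and Cxcl16 rose by 0.37 (SE 0.10, adjusted p = 0.0229) over control. Within both ranges of title numbers each of these differences had the same sign.

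Plau, which encodes the urokinase plasminogen activator, differed between the genotypes in its diet effect. It had 37.2, 59.9 and 108 CPM in HAMSAB AD libraries, against 45.2, 67.4 and 162 in zero fiber AD libraries, and 71.3, 148 and 268 CPM in HAMSAB WT libraries, against 39.3, 55.7 and 91.7 in zero fiber WT libraries. The log2 fold change of HAMSAB over zero fiber was 1.499 in WT (SE 0.31, adjusted p = 0.00699) and -0.58 in AD (SE 0.28, adjusted p = 0.454), the difference of AD from WT in that effect was -2.08 (SE 0.42, adjusted p = 0.0072), and AD over WT on HAMSAB was -1.28 (SE 0.27, adjusted p = 0.00564). The WT value was 1.38 (adjusted p = 0.106) without zero fiber WT replicate 1 and 1.65 (adjusted p = 0.0656) without replicate 3 of that group; the difference of effects had an adjusted p of 0.0564 without zero fiber WT replicate 1 and of 0.0641 without zero fiber AD replicate 4. In HAMSAB against zero fiber in WT, 4 of the 26 targets rose (Plau, Ccl4, Csf1 and Cd83) and 0 fell, against 1.86% and 0.322% of all genes. All 4 calls were lost without zero fiber WT replicate 3, where the estimates were 1.65 for Plau (adjusted p = 0.0656), 1.05 for Ccl4 (0.169), 0.50 for Csf1 (0.352) and 0.41 for Cd83 (0.416). The Csf1 call in WT held in 7 of 14 fits that left out 1 library. Zero fiber WT replicates 1 and 3 are the only 2 male libraries of that group. Because sexes were weighted equally, a fit without either rests the male mean of that group on 1 library.

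Upstream of the kinase, 30 of 32 listed kinases and adaptors were tested. Irak2, a kinase of the interleukin-1 and Toll-like receptor complex, had the same pattern as Plau: medians of 57.8 and 66.8 CPM on HAMSAB and zero fiber in AD, and 89.4 and 47.8 CPM in WT. Its log2 fold change of HAMSAB over zero fiber was 0.89 in WT (SE 0.21, adjusted p = 0.0136), lost without zero fiber WT replicate 1 (0.89, adjusted p = 0.109) or replicate 3 (0.89, adjusted p = 0.128), and AD differed from WT in that effect by -1.11 (SE 0.28, adjusted p = 0.0304), a call that held in 19 of 30 fits that left out 1 library. It was the 1 gene of the list called in each of these comparisons, against 1.86% of all genes rising in WT and 1.02% with a lower effect in AD. For HAMSAB over control over both genotypes, Ripk1, a kinase of the TNF receptor complex, fell by 0.51 (SE 0.10, adjusted p = 0.00533). It was the 1 of 30 called lower, against 2.21% of all genes, and 0 rose, against 2.31%. Ripk1 had medians of 37.3 and 48.0 CPM on HAMSAB and control in AD, and 41.4 and 56.0 CPM in WT, and it passed under every alternative run.

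Of 18 other inhibitors and brakes of the pathway, 15 were tested. Over both genotypes Usp18, an interferon-induced protease that also dampens NF-kB signalling, rose with HAMSAB by 0.69 over zero fiber (SE 0.17, adjusted p = 0.0259) and by 0.58 over control (SE 0.15, adjusted p = 0.0208), the first call held in 25 of 30 fits that left out 1 library and the second in all 32, with medians of 23.6, 14.6 and 15.6 CPM on HAMSAB, zero fiber and control in AD and 22.9, 13.4 and 14.2 CPM in WT. N4bp1, which restrains NF-kB activation, fell over control by 0.29 (SE 0.08, adjusted p = 0.0252); the call was lost without any 1 of 4 control libraries, with an adjusted p of up to 0.0595. The remaining 13 did not pass in either comparison. Over zero fiber 1 of the 15 rose and 0 fell, against 0.586% and 0.437% of all genes. Over control 1 rose and 1 fell, against 2.31% and 2.21% of all genes. Of 17 immediate early genes tested, Egr2 rose with HAMSAB over zero fiber (1.42, SE 0.35, adjusted p = 0.0299; mean log2 CPM difference 1.502 in the lower and -0.13 in the higher range of title numbers), a call held in 24 of 30 fits that left out 1 library. The Egr2 estimate was 2.41 without zero fiber AD replicate 4, and the call was lost with voom (1.14, adjusted p = 0.111) and with the title-range term (1.31, adjusted p = 0.0539). Jun fell over zero fiber (-0.37, SE 0.10, adjusted p = 0.0411), held in 12 of 30 such fits and lost with the title-range term (adjusted p = 0.0546), and over control (-0.42, SE 0.09, adjusted p = 0.00646), held in all 32. Among the 17 genes, 1 rose and 1 fell over zero fiber, against 0.586% and 0.437% of all genes. Over control 0 rose and 1 fell, against 2.31% and 2.21% of all genes.

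**Figure D5:**
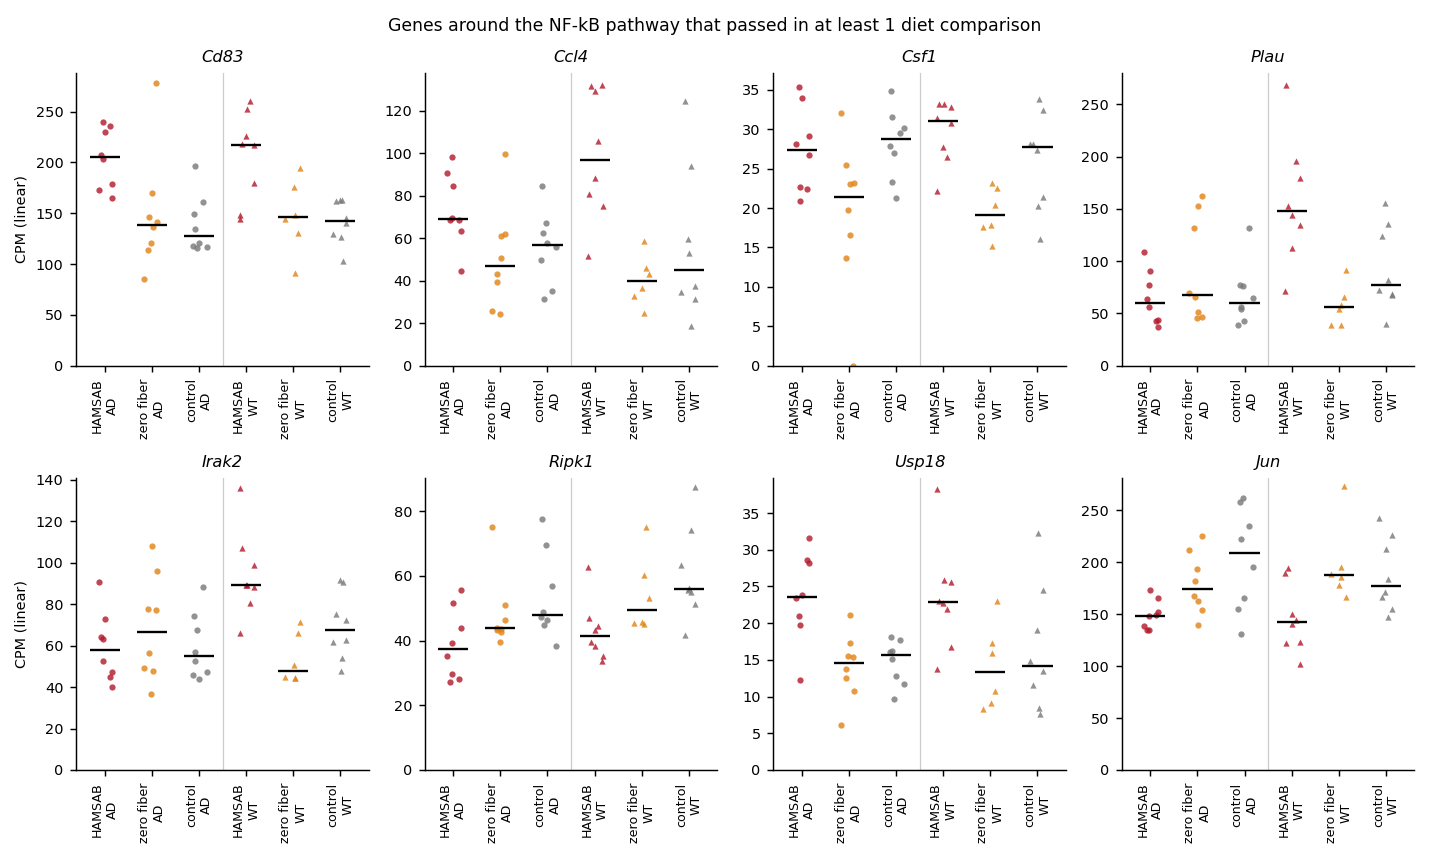
CPM per library, on linear axes from 0, of 8 genes of the listed targets, upstream kinases, brakes and immediate early genes that passed in at least 1 diet comparison; circles are AD, triangles WT, and bars the group medians. Cd83 and Usp18 have their highest medians on HAMSAB in both genotypes, Plau and Irak2 on HAMSAB in WT, and Jun and Ripk1 have their lowest medians on HAMSAB.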

How the data were processed

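The authors deposited 1 table of raw counts per gene for all libraries; per the submitters' processing notes, STAR 2.5.2b and featureCounts 1.5.2 were used with GRCm38 (mm10). Which annotation was counted, whether strand was used and how reads with several positions were treated is not stated there. Groups come from the labels' diet and genotype. Genes were filtered with edgeR's filterByExpr, scaled by TMM and fitted in 1 quasi-likelihood model (edgeR 4.0.16, R 4.3.3) over all 46 libraries with 12 means, 1 for each group and sex; sexes were weighted equally. P-values were adjusted by Benjamini-Hochberg over the 12121 genes tested, and genes were called at 0.05; intervals are 95% intervals from the same test. Where a gene's fitted variance falls below Poisson variance, edgeR's default bound raises its p-value, so some p-values far above 0.05 exceed what their SE implies. CPM used TMM-scaled library sizes. For correlations and within-range differences, log2 CPM used a prior count of 2. Within-range differences are between plain means over libraries, without weighting by sex or genotype. Exon lengths, positions and overlaps came from GENCODE M21. The fit was tested on simulated counts. None of 155 same-group pairs of libraries was identical or within sampling noise (chi-square per degree of freedom at least 1.62). All members were named; of other lists, up to 4 called genes of lowest p per comparison, and for each member the 2 genes of highest correlation, except 1 for Ikbkb that is not reported here. The members and lists were chosen with earlier results of these data known. Alternatives were DESeq2 1.42.0 (size factors, and its test), limma 3.58.1 (voom with quality weights), no filter on low counts, a term for the range of title numbers, fits of the compared libraries only, and leaving out libraries; 2 comparisons over both genotypes were added after the data were seen. Counting error limits the least abundant members: it alone gives Nfkbiz a coefficient of variation of 16.3%.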

Additional observations from a re-analysis of the deposited data

Results flagged for a closer look

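Within groups of 6 or 8 libraries, 11 of 60 sets of member values had a library far from the others by Dixon's criterion, which chance alone meets in about 1 in 20 sets. The zero fiber AD library of 52114 counts (replicate 3) accounts for 4: Nfkb1 at 92.7 CPM (6 counts), Nfkb2 at 0 CPM (0 counts), Rela at 124 CPM (8 counts) and Relb at 61.8 CPM (4 counts). In zero fiber WT replicate 1 both Nfkb2 (28.3 CPM, next 18.8) and Nfkbia (404 CPM, next 275) were far above the rest. Nfkbia was also high in control WT replicate 3, at 354 CPM against 268 in the next library. Ikbkb reached 259 CPM in HAMSAB AD replicate 6, where the next library had 168, and 175 CPM in zero fiber AD replicate 2, where the next had 129. Rela reached 105 CPM in HAMSAB WT replicate 8, with the next at 71.5, and Relb 52.4 CPM in HAMSAB WT replicate 6, with the next at 32.2. The cause of these values was not tested.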

How the results depend on the processing

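No member was called in 13 of 15 planned comparisons under any alternative, and no value with an unadjusted p under 0.05 changed sign. Without the filter on low counts, 1 member was called for HAMSAB over control in AD (Ikbkb, adjusted p = 0.0165), 1 for HAMSAB over zero fiber over both genotypes (Nfkbia, 0.0454) and 1 for HAMSAB over control over both genotypes (Ikbkb, 0.0454). In that last, added comparison voom called 1 (Rela, 0.0448), and fits that left out 1 library called 0 to 2: Tnfaip3 without HAMSAB AD replicates 1 or 8, HAMSAB WT replicate 6, control AD replicates 1, 3 or 6 or control WT replicates 6 or 7, Ikbkb without HAMSAB AD replicates 5 or 8, HAMSAB WT replicate 5 or control AD replicate 4, and Rela without HAMSAB WT replicate 8 or control AD replicate 6. Apart from the 46 fits that each left out 1 library in turn, the other settings gave 1340 member values. Of these 46 changed sign, all with a log2 fold change under 0.07 in size. In the fits that left out each library in turn, 291 of 4140 member values changed sign. Counts of all genes called moved more: for HAMSAB over control in AD, 9 as reported, 93 by DESeq2, 72 by voom, 25 with the title-range term, 70 in a fit of these libraries alone, 357 without the filter and 19 without the 2 doubted libraries; in WT 34, against 77, 102, 1, 4 and 433 without the filter. Over both genotypes HAMSAB over control called 548 genes, 360 with the title-range term and 982 without the filter. Without the filter 31448 genes were tested and every comparison called more: for HAMSAB over zero fiber 204 against 29 in AD, 505 against 265 in WT and 464 against 124 over both; for zero fiber over control 269 against 7 in AD, 183 against 1 in WT and 334 against 44 over both; for AD over WT 464 against 204 on HAMSAB, 93 against 1 on zero fiber, 149 against 0 on control and 188 against 2 over the diets; for the differences between genotypes 374 against 131, 66 against 0 and 207 against 0; and 169 against 15 for male over female. The title-range term called 153 genes for AD over WT on HAMSAB. DESeq2's size factors moved no group median of a member by over 1 SD (ratios 0.972 to 1.01). No paired analysis was possible because the replicate numbers follow accession order and pair no libraries.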
